A study of Mus musculus with 18 samples.

Results

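The aminoacyl-tRNA synthetase genes and the tRNA exportin gene Xpot were examined in peak lists from chromatin immunoprecipitation with sequencing for ATF4. The 37 genes were taken by name from 21883 protein-coding genes, and comprise 20 cytosolic synthetases, 16 mitochondrial synthetases (symbols ending in 2) and Xpot. Primary immature neurons from mouse embryos at E14, kept 2 days in vitro in a medium with fetal bovine and horse serum, were left untreated (control) or given 10 mM 2-deoxyglucose (2-DG, a glucose analogue that blocks glycolysis) for 6 h. The series holds 18 samples, and 10 of its immunoprecipitations come with peaks. Input libraries of both treatments are also in the series and were not used here. Their part in the peak calls was not examined. All labels name the same treatment for 4 control lists (titles 1, 5, 9 and 13) and 4 2-DG lists (titles 2, 6, 10 and 14), numbered here as replicates 1 to 4 of each treatment in that order. The other pair of lists carried conflicting labels and entered no comparison. Control samples carry no antibody in their labels, although the design text describes ATF4 immunoprecipitation of untreated and treated cells alike, so treatment and antibody cannot be told apart by the labels. Strain, sex and the number of embryos were not given in the sources used here, and binding lists do not measure expression, so the neuronal identity of the cells could not be checked from them.

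Aminoacyl-tRNA synthetases attach each amino acid to its tRNA. Separate nuclear genes encode most of the enzymes that work in the cytosol and in mitochondria, while Gars and Kars each encode both forms. Part of the cytosolic set (Dars, Eprs, Iars, Kars, Lars, Mars1, Qars and Rars) sits in the multi-synthetase complex, and Xpot carries tRNA out of the nucleus. ATF4 is a bZIP transcription factor of the integrated stress response. It binds with C/EBP family partners at a composite C/EBP-ATF element, and it is known to act on genes of amino acid supply and tRNA charging.

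Promoters from RefSeq (GRCm38.p6, 250 bases before to 50 after a gene start) were matched for 28 of the 37 genes. Those not matched were Cars, Hars, Lars, Nars, Rars, Vars, Wars, Hars2 and Pars2. The 6 promoters below were touched by a peak in all 4 2-DG lists and are shown because the promoter itself was bound there in every treated list. Dars and Ears2 had no peak in any of the 8 lists and are shown for contrast. Capitals mark each match to TGATGNAA on either strand, the core of the C/EBP-ATF element. Aars is from chr8:111033592-111033891 (+ strand), Iars from chr13:49681880-49682179 (+), Tars from chr15:11399609-11399908 (-), Mars1 from chr10:127311737-127312036 (-), Yars from chr4:129189653-129189952 (+), Gars from chr6:55037751-55038050 (+), Dars from chr1:128417367-128417666 (-) and Ears2 from chr7:122067037-122067336 (-).
Aars: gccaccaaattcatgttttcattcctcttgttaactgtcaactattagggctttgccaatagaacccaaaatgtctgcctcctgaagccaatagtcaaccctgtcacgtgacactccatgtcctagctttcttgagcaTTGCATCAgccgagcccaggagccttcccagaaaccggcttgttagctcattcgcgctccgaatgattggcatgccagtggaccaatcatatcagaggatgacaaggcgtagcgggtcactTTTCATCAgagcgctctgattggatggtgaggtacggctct
Iars: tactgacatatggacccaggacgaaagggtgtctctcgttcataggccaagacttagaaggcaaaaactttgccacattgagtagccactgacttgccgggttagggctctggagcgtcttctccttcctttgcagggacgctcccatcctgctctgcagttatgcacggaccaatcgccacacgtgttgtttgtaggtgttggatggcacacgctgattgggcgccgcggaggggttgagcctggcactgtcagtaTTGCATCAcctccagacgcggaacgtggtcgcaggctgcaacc
Tars: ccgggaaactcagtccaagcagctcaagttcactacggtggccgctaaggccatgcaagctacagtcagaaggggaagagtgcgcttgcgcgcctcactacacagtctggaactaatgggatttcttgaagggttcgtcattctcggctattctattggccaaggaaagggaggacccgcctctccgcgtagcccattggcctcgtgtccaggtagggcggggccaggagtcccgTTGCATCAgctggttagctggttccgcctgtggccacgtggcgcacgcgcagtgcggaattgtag
Mars1: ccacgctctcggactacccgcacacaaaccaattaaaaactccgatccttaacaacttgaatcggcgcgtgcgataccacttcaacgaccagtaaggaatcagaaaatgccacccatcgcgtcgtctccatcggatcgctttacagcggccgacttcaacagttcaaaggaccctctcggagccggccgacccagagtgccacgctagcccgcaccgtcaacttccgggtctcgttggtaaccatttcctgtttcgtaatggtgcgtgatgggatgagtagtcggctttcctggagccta
Yars: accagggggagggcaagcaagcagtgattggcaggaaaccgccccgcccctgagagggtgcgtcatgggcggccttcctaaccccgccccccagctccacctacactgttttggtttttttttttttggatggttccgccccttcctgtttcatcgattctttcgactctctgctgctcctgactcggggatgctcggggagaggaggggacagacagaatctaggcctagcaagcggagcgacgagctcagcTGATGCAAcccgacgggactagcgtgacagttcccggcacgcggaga
Gars: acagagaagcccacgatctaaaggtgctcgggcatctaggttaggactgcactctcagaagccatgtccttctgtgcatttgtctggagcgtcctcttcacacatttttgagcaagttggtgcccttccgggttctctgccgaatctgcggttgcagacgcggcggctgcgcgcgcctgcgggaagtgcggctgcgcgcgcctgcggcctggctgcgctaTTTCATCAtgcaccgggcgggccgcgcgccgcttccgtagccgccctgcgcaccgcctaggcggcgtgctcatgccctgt
Dars: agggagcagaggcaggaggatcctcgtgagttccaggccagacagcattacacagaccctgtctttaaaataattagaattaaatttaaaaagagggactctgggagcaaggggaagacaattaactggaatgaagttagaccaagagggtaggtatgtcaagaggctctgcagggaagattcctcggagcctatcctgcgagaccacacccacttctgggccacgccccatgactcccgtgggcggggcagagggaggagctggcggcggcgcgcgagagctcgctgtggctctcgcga
Ears2: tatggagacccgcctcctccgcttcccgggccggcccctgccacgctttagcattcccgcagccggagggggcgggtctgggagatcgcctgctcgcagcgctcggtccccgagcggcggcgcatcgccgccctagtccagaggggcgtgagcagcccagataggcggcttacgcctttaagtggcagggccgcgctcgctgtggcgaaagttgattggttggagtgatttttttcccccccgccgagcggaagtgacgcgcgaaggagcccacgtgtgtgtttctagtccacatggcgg

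The element was found in 5 of the 6 promoters of cytosolic synthetases that were touched in all 4 2-DG lists, namely Aars (with 2 matches), Gars, Iars, Tars and Yars. Mars1 had no match to these letters in its window. None of the 5 cytosolic promoters touched in no 2-DG list (Dars, Farsa, Kars, Qars and Sars) held it, nor did any of the 14 mitochondrial genes with a promoter, nor Xpot. Over 21262 promoters of protein-coding genes 3.60% held a match, and among the 72 promoters touched in all 4 2-DG lists 47.2% did. The cAMP response element, TGACGTCA, another bZIP site that reads the same on both strands, was in 2.23% of promoters and in 0 of the members' promoters, so the motifs overlap in none of them. A match describes the letters and was not tested as a binding site.

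In every 2-DG list a summit lay close to a match at each synthetase gene that held one. At Yars, the tyrosyl-tRNA synthetase gene, the nearest summits of 2-DG replicates 1 to 4 were 8.5, 11.5, 1.5 and 0.5 bp from the centre of the match. At Aars, for alanine, they were 9.5, 9.5, 11.5 and 6.5 bp from the upstream match. From the other Aars match the nearest summits were 111.5, 111.5, 109.5 and 127.5 bp away. At Iars, for isoleucine, the distances were 29.5, 35.5, 26.5 and 41.5 bp, and at Tars, for threonine, they were 37.5, 49.5, 52.5 and 41.5 bp. At Gars, for glycine, the highest summits lay downstream, but a lower summit stood 55.5, 43.5, 59.5 and 16.5 bp from the match in the 4 lists. In the plot of summits around gene starts the 2-DG summits of each gene form a tight group. Highest control summits, in bp from the gene start (negative is upstream), were -35, -34, 9 and 58 at Iars, whose match centre is at 11. At Tars the control summit was at 10 and the match at -11, and at Yars they were at -10 and 7. The Aars control summits were at -65 and -138, with matches at -108 and 13. The Gars control summit was at 101, with the match at -26. Closeness was thus not particular to 2-DG lists at Iars, Tars, Yars and Aars, although at Yars and Aars the 2-DG summits lay nearer to the match.

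**Figure D1:**
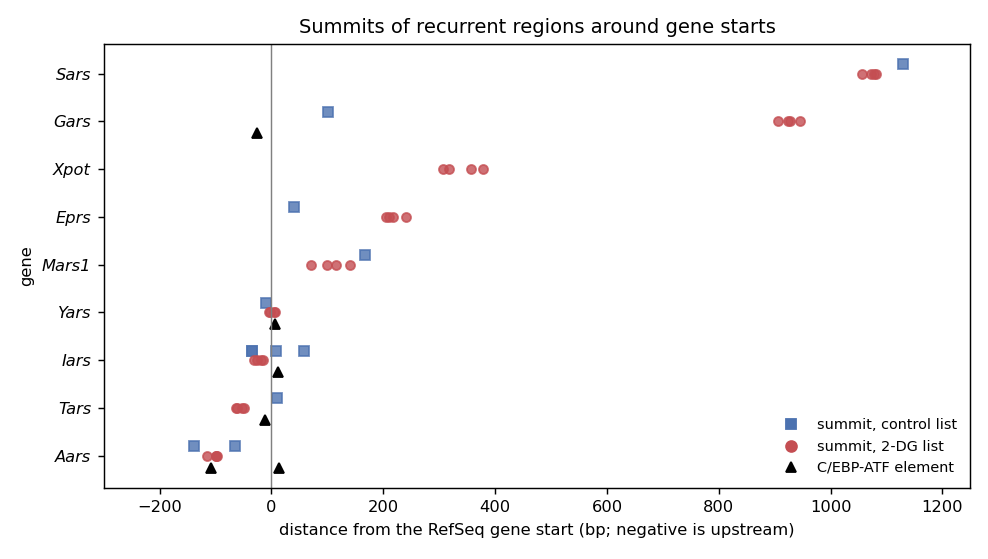
Distance in bp from the RefSeq gene start (x axis, negative is upstream) of the highest summit in each list at 9 genes with a recurrent region and a known start. Circles are 2-DG lists, squares are control lists and triangles are centres of C/EBP-ATF element matches within the promoter window. The median 2-DG summit is 99 bp upstream at Aars and 1 bp downstream at Yars, while at Gars and Sars it is 925 and 1075 bp downstream.

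Cytosolic synthetase genes were bound in more lists after 2-DG than mitochondrial ones, where bound means that at least 1 bp of a peak lay inside the gene or within 2000 bp of either end. In 2-DG replicates 1 to 4, 15, 14, 11 and 13 of the 20 cytosolic genes were bound (13.25 ± 1.71, SD, n = 4), against 11, 4, 2 and 3 in control replicates 1 to 4 (5 ± 4.08, SD, n = 4). Control replicate 1 reached the lowest 2-DG count and the other control lists stayed well under it. Of the 16 mitochondrial genes, the 2-DG lists held 4, 3, 4 and 3 (3.5 ± 0.577, SD, n = 4) and the control lists held 2, 1, 5 and 1 (2.25 ± 1.89, SD, n = 4). The mitochondrial counts overlapped between treatments, and the highest was in control replicate 3. The share of all protein-coding genes bound was 19.1%, 11.5%, 9.59% and 8.64% after 2-DG, and the control lists gave 5.05%, 5.04%, 10.9% and 8.73%. The mean difference of 8.25 cytosolic genes per list became 4.4 when the lists with conflicting labels were added by their descriptions. Because members were chosen with earlier results known, no test was run over these counts. Whether a site was occupied in more cells or more often in each cell cannot be told apart in such bulk lists.

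**Figure D2:**
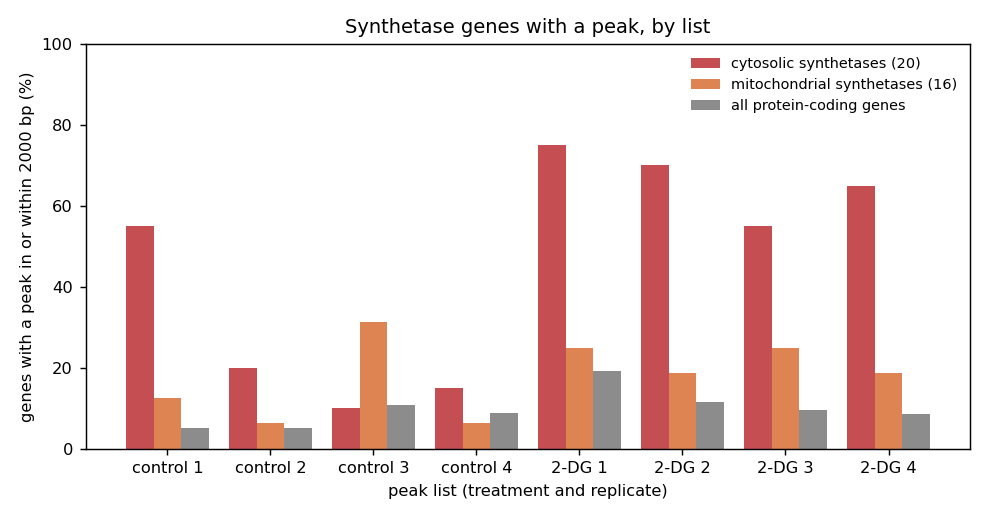
Percent of cytosolic synthetases, mitochondrial synthetases and all protein-coding genes with a peak in the gene or within 2000 bp of it (y axis), for each of the 8 lists (x axis). Cytosolic bars stand between 55% and 75% in the 2-DG lists and between 10% and 55% in the control lists, the highest of the latter being control replicate 1.

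Of the 37 genes, 16 were bound in at least 3 of the 4 2-DG lists, compared with 7.04% of all protein-coding genes. In all 4 2-DG lists 14 of the 37 were bound, against 3.65% of all genes. The 16 were 13 of the 20 cytosolic synthetases (65%), 2 of the 16 mitochondrial ones (12.5%) and Xpot. The cytosolic and mitochondrial genes had similar median lengths, 26970 and 25131 bp, against 17170 bp over all genes. The part of length in the gap to all genes was not tested. At least 1 control list had a peak at 15 cytosolic and 6 mitochondrial genes (19.0% of all genes), and 13 members had none in any of the 8 lists (68.0% of all genes). Only Iars and Lars2 were bound in at least 3 control lists, a rule met by 2.65% of all genes, and both were bound in all 8 lists, a pattern of 0.695% of all genes. Peaks near gene ends alone, within 2000 bp of either end, recurred in at least 3 2-DG lists at 11 cytosolic genes and 1 mitochondrial gene, against 1.81% of all genes. The 2 cytosolic genes that drop out by that rule are Aars, whose table entry begins about 6 kb before the promoter that carries its peak (the median 2-DG summit lay 5965 bp inside the lower end), and Rars, whose peaks reached within 2000 bp of its upper end in only 2 2-DG lists.

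Recurrence did not divide along the multi-synthetase complex. Of its 8 enzymes, 5 were bound in at least 3 2-DG lists (Eprs, Iars, Lars, Mars1 and Rars) and 3 were bound in no list (Dars, Kars and Qars). Outside the complex, 8 of 12 cytosolic genes recurred. By the structural class of the enzyme, 7 of 9 class I and 5 of 10 class II cytosolic genes recurred, and Eprs joins an enzyme of each class in 1 protein. Of the 12 recurrent cytosolic genes with a mitochondrial counterpart among the members, the 13 counterparts included 1 that recurred, Lars2, and 9 bound in no 2-DG list. Over all genes 7.04% were bound in at least 3 2-DG lists, so 1 of 13 counterparts is near that share. The share of all genes bound in no 2-DG list is not given, and 68.0% were bound in none of the 8 lists. These are counts of few genes and were not tested.

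A test per gene could call none of these. Two-sided Fisher's exact tests of lists with a peak, 4 against 4, called 0 of 7013 genes with a peak in any list after Benjamini-Hochberg adjustment (0% of genes, lowest adjusted p = 0.838). The smallest p that 4 lists against 4 allow is 0.0286, and 4008 genes would have had to reach it for any to pass. It was reached by 238 genes bound in every 2-DG list but in no control list, and by 1 gene with the reverse pattern. Among the members Xpot was the lone gene at this p.

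No cytosolic synthetase was bound in every 2-DG list while free of control peaks, a pattern shown by 1.09% of all genes, and control replicate 1 decides this count. Without that list, 9 cytosolic genes showed it (Cars, Eprs, Gars, Lars, Mars1, Nars, Sars, Tars and Yars), against 1.38% of all genes. A control list was otherwise found at the recurrent regions of only Aars and Iars among the cytosolic genes. Here a recurrent region is a run of overlapping peaks from the 8 lists that was called in at least 3 of 4 2-DG lists. The members held 17 such regions, 13 at cytosolic genes, 2 at Fars2 and 1 each at Lars2 and Xpot. Apart from Lars2, the control lists held 11, 2, 1 and 1 of the other 16 regions. Their presence in the 2-DG lists is what chose them, so these control counts are given as a description and not set against 2-DG counts. Control replicate 1 was the shortest list, with 3461 peaks.

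**Figure D3:**
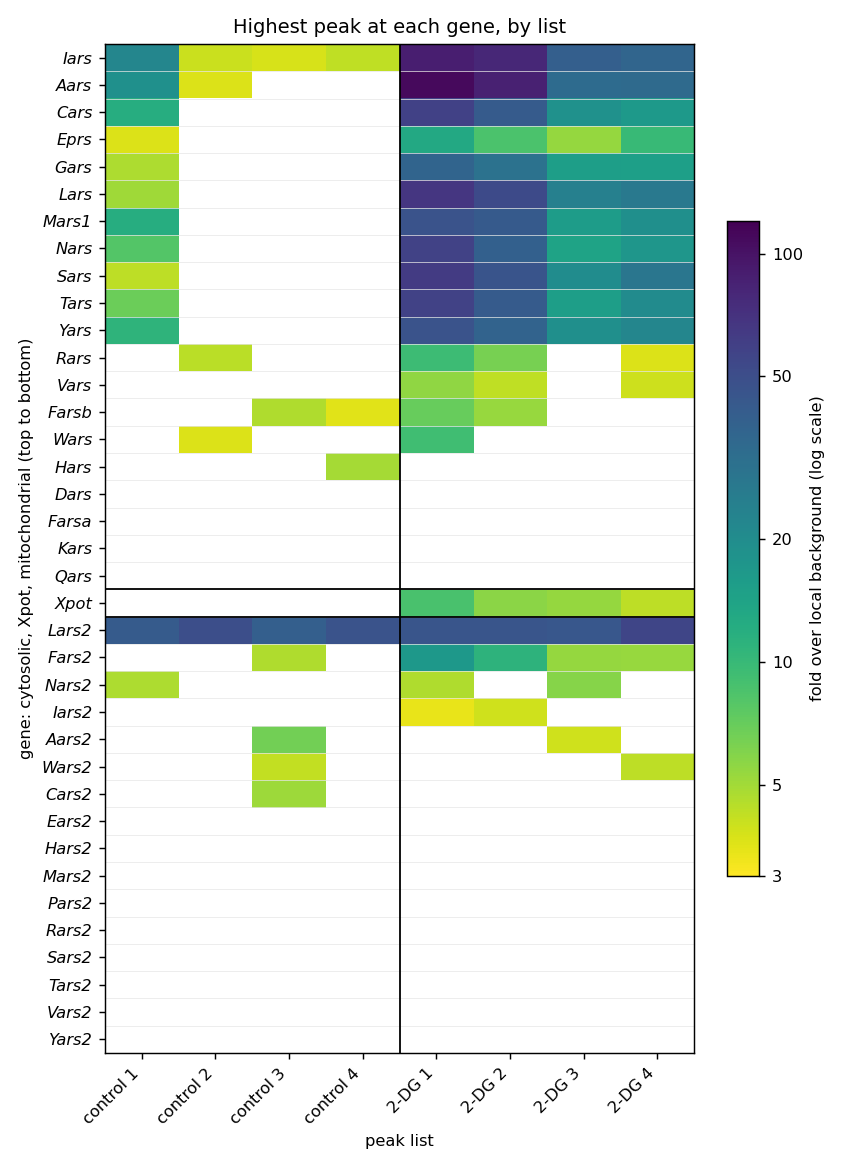
The authors' fold over local background of the highest peak at each of the 37 genes (y axis), in each of the 8 lists (x axis), on a log colour scale, with white where no peak was called. Cytosolic genes are at the top, then Xpot, then mitochondrial genes. The block of 11 cytosolic genes filled in every 2-DG list also appears, paler, in control replicate 1, and Lars2 alone is dark in all 8 lists.

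By the median over the 2-DG lists, the highest folds among the members were at Aars and Iars, although Lars2 stood above both in 2-DG replicates 3 and 4. The fold given with each peak is the authors' enrichment over the local background in that list. Lists differ in length and their depth is unknown, so folds are set side by side and were not tested against each other. The percentile is the rank of a fold within its own list. The regions were chosen by their 2-DG peaks, which bears on every order of 2-DG and control folds given here and below. The share of all genes with every 2-DG fold above every control fold is not given, so such orders are description only. Aars, on chromosome 8 from 111027778 to 111055569, had folds of 109, 86.1, 33.3 and 33.5 in 2-DG replicates 1 to 4, and of 18.9 and 3.66 in control replicates 1 and 2. All 4 2-DG folds lay above both control folds, and they ranked 12, 14, 44 and 57 among 15240, 7369, 6371 and 5856 peaks. The region, from 111033245 to 111034163, also lies within 2000 bp of Ddx19b, an RNA helicase gene. Iars, on chromosome 13 from 49682130 to 49734267, had folds of 87.8, 79.7, 39.1 and 36.2 after 2-DG and of 22.2, 4.03, 3.74 and 4.24 in the control lists. Its 3 weak control peaks ranked at percentiles of 31.7, 11.5 and 45.1, whereas the 2-DG peaks ranked at 99.9, 99.8, 99.5 and 99.2. The 2-DG summits at Iars spanned 15 bp, with a median 22 bp upstream of the gene start.

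Lars and Nars, which encode the leucine and asparagine enzymes, carried peaks across the upper-coordinate end of each gene on chromosome 18. At Lars the folds were 67.1, 52.3, 24.0 and 26.9 after 2-DG and 5.09 in control replicate 1. At Nars they were 57.8, 38.8, 14.2 and 17.3 after 2-DG and 8.00 in control replicate 1. In both genes every 2-DG value exceeded the single control value, and no peak was called in the other control lists. The median 2-DG summits lay 103 bp inside the Lars end and 22 bp outside the Nars end.

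Sars and Tars encode the serine and threonine enzymes. At Sars, on chromosome 3 from 108424864 to 108445259, the folds were 62.8, 45.9, 20.1 and 28.2 after 2-DG and 4.36 in control replicate 1. That region sat 1075 bp inside the gene from its start, with 2-DG summits spanning 25 bp, and its promoter window held no peak. At Tars, on chromosome 15 from 11383663 to 11399658, they were 57.8, 41.6, 15.2 and 20.2 after 2-DG and 6.91 in control replicate 1. The Tars summits spanned 15 bp, with a median 57 bp upstream of the start.

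Cars, Mars1 and Yars charge cysteine, methionine and tyrosine tRNAs, and had much the same profile. Cars, on chromosome 7 from 143557230 to 143600090, gave folds of 58.5, 41.6, 18.6 and 16.3 after 2-DG and 12.0 in control replicate 1. Mars1, on chromosome 10 from 127296221 to 127311786, gave 47.0, 42.0, 15.7 and 19.2 after 2-DG and 12.0 in control replicate 1. For both genes every 2-DG fold was above the control one, by less than at Lars or Sars. Yars, on chromosome 4 from 129189734 to 129219240, gave 46.4, 36.99, 19.1 and 22.2 after 2-DG and 10.9 in control replicate 1, and its region also touches the window of S100pbp. The Yars summits spanned 12 bp, with a median 1 bp from the RefSeq start.

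Gars and Eprs were bound in the same 5 lists with lower folds. Gars, on chromosome 6 from 55038001 to 55079504, gave 36.8, 29.9, 15.2 and 14.9 after 2-DG and 4.73 in control replicate 1. Its summit in that control list was 824 bp from the median 2-DG summit, nearer to the gene start than to the higher 2-DG summits. Eprs, which encodes the joined glutamate and proline enzymes on chromosome 1 from 185361417 to 185428360, gave 10.2, 8.54, 5.38 and 9.95 after 2-DG and 3.64 in control replicate 1. The Eprs summits spanned 37 bp, 214 bp downstream of the start at the median, and a peak was called in its promoter window in 2 of the 4 2-DG lists. A separate peak further inside Eprs was called in 2-DG replicates 1 and 2 alone, with folds of 13.0 and 7.47.

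Rars and Vars, for arginine and valine, had weak regions called in 3 of 4 2-DG lists and no control list. Rars folds were 9.59, 6.40 and 3.65 in 2-DG replicates 1, 2 and 4, at a median of 2152 bp inside the upper-coordinate end. Vars folds were 5.57, 4.27 and 3.98 in the same lists, 1137 bp inside the lower-coordinate end, in a region shared with the window of D17H6S56E-5. Both were missing from 2-DG replicate 3. Control replicate 2 had a peak elsewhere in Rars, which is why the gene counts as bound in 1 control list.

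The other 7 cytosolic synthetases did not recur. Farsb, a subunit gene of the phenylalanine enzyme, had peaks near its upper end in 2-DG replicates 1 and 2, with folds of 7.11 and 5.34, and peaks elsewhere in the gene in control replicates 3 and 4. Wars, for tryptophan, had a peak in 2-DG replicate 1 and one at another place in control replicate 2, and Hars, for histidine, had one in control replicate 4 alone. Dars, Farsa, Kars and Qars had none in any of the 8 lists. For Farsb and its partner subunit Farsa, neither subunit gene was recurrent.

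**Figure D4:**
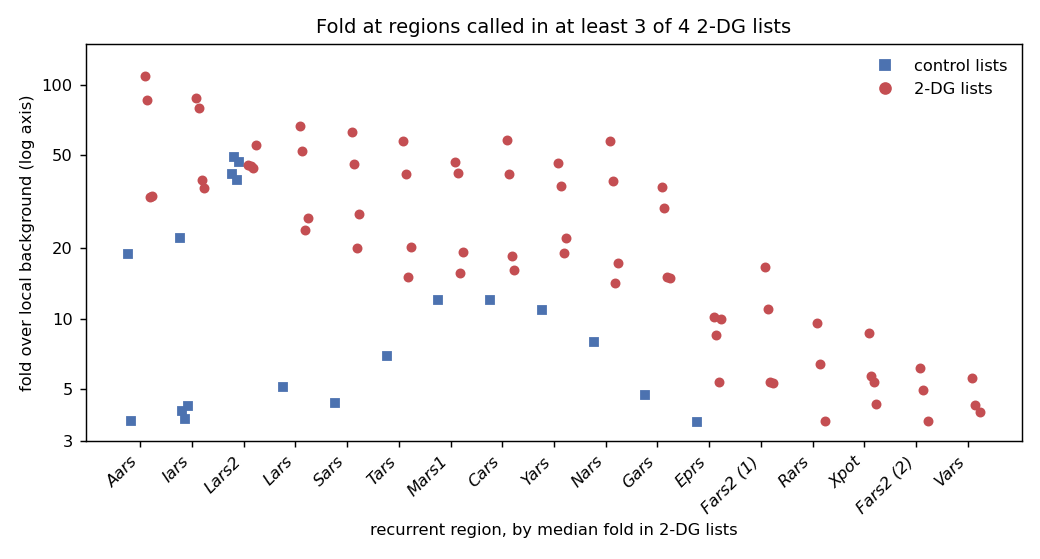
The authors' fold over local background (y axis, log scale) in each list that called a peak, at the 17 regions found in at least 3 of 4 2-DG lists (x axis, ordered by median 2-DG fold). Circles are 2-DG lists, squares are control lists, and Fars2 has 2 regions. Every 2-DG fold exceeds every control fold at the 11 cytosolic genes with both kinds of point, while at Lars2 the 2 kinds lie together. The regions were chosen by their 2-DG peaks, and at 9 of these 11 genes the control point is control replicate 1 alone. The share of all genes with this order is not given.

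Lars2, the mitochondrial leucyl-tRNA synthetase gene, had a peak of much the same fold in every list. This gene lies on chromosome 9 from 123366927 to 123462675, and the region, from 123461815 to 123462187, is 373 bp wide. Control folds were 41.8, 49.5, 39.3 and 46.7, and 2-DG folds were 45.5, 45.2, 44.0 and 55.4, so the treatments overlap. The 8 summits lay within 10 bp of the 2-DG median, which is 95085 bp downstream of the gene start and 663 bp inside the other end. Every list gave it a percentile of 99.2 or more. Read within each list, none of the other 16 regions stood above Lars2 in any control list. In 2-DG replicate 1, 9 did (Aars, Cars, Iars, Lars, Mars1, Nars, Sars, Tars and Yars), and in 2-DG replicate 2, 4 did (Aars, Iars, Lars and Sars), but none did in 2-DG replicates 3 and 4. Thus the order of Aars and Iars against Lars2 differed among the 2-DG lists themselves.

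Fars2, the mitochondrial phenylalanine enzyme gene, was the other mitochondrial gene that recurred. It is the longest of the members, at 420168 bp on chromosome 13 from 36117428 to 36537595, and its regions lie deep inside it. The first, from 36219502 to 36219827, gave folds of 16.7, 11.0, 5.38 and 5.31 after 2-DG and no control peak, at a median of 102045 bp from the start. The second, from 36448814 to 36449150, gave 6.19, 4.98 and 3.65 in 2-DG replicates 1, 2 and 4 and no control peak. Control replicate 3 had a peak at another place in the gene. Whether these regions are exonic or intronic was not analysed here.

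The remaining 14 mitochondrial genes showed scattered or no peaks. Nars2 was bound in 2 2-DG lists and in control replicate 1, and Iars2 in 2 2-DG lists and no control list. Aars2 and Wars2 were each bound in 1 2-DG list and in control replicate 3. No place in these 4 genes was shared by 3 lists. Cars2 was bound in control replicate 3 alone. Ears2, Hars2, Mars2, Pars2, Rars2, Sars2, Tars2, Vars2 and Yars2 had no peak in any of the 8 lists. None of the 14 mitochondrial genes with a known promoter had a peak on it in any 2-DG list, which is also the state of 98.4% of all promoters. Of the 13 cytosolic genes with a known promoter, 6 were touched in all 4 2-DG lists, a state of 0.339% of all promoters. The same 6 made up the promoters touched in at least 3 2-DG lists, against 0.635% of all promoters.

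Xpot, the exportin gene, on chromosome 10 from 121587380 to 121626506, was the single member bound in every 2-DG list while free of control peaks. That pattern was shown by 1.09% of all genes, so 1 member with it does not set the members apart. The Xpot region gave folds of 8.66, 5.69, 5.38 and 4.31, with percentiles of 89.3, 68.9, 64.8 and 33.4. These ranks were lower than those of the strong cytosolic genes in the same lists. The median summit lay 336 bp downstream of the start, outside the promoter window.

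Genes that work beside the synthetases were bound at shares near those of all genes. Of 25 such genes, 2 (8%) were bound in at least 3 2-DG lists, against 7.04% of all genes, and 18 in no list, where 68.0% of all genes stood. Ptrh2, a peptidyl-tRNA hydrolase gene, had a region 858 bp inside its upper-coordinate end with folds of 29.7, 8.18, 5.38 and 7.96 in the 2-DG lists and no control peak. Impact, whose product restrains the kinase GCN2, was bound in 3 2-DG lists, but with no region common to 3 of them. The scaffold genes of the multi-synthetase complex (Aimp1, Aimp2 and Eef1e1) and the elongation factor genes Eef1a1, Eef1a2, Eef1b2 and Eef1g had no peak in any list, while Eef1d, of the same group, had 1 in 2-DG replicate 2 with a fold of 3.91. Nor did Tufm and Tsfm, which encode their mitochondrial counterparts. Eif2ak4, the gene of GCN2, which senses uncharged tRNA, was bound in 1 list of each treatment.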

How the data were processed

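Peak lists from 4 control and 4 2-DG immunoprecipitations were analysed. Each deposited list belongs to 1 library, on mm10, and was called with MACS2. BWA, Picard and DiffBind are named too, all without versions, per the submitters' processing notes. For each summit the authors deposited the p-value and q-value as -log10, a fold (ratio) over local background, and a score equal to 10 times that -log10 q-value, rounded down. No read counts were used here, so depth is unknown, and absence from a list is not absence of binding. The labels describe RNA extraction and no chromatin steps. The design states 3 independent replicates, while 5 lists per treatment carry its title. Nothing ties lists to separate cultures, so p-values apply to lists and not to cultures. They rest only on how many lists of each treatment held a peak at a gene.

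Intervals repeated for several summits were taken once, at the highest fold. Genes came from the RefSeq table (GRCm38.p6, the same coordinates as mm10), and all 37 symbols matched. Members, lists and tests were chosen with earlier results of these data known. Members bound in 3 or 4 lists of either treatment are described in full, and partner genes with one are named. Promoters printed are up to 6 with the highest median 2-DG fold among those touched in all 4 2-DG lists and up to 2 of members without a peak, outside chromosome 18. Motifs were matched on both strands. Fisher's exact test used scipy 1.17.1 under Python 3.11.15, and the code was tested on simulated lists. Alternatives were other windows (500 and 5000 bp, ends only, summits only), minimum -log10 q of 2 or 5, minimum fold of 5, the top 3461 peaks of each list, leaving out each list, and adding the lists with conflicting labels.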

Additional observations from a re-analysis of the deposited data

Results flagged for a closer look

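Of 22 groups of 4 lists screened for a value far from the other 3, 3 held one, where a rate of 1 in 20 would give 1.1. The groups reuse the same lists and are not independent, so whether 3 exceeds that rate was not tested. The fold at Iars in control replicate 1 was 22.2, against 3.74 to 4.24 in the other control lists. The fold at Lars2 in 2-DG replicate 4 was 55.4, against 44.0 to 45.5 in the other 2-DG lists. Control replicate 1 held peaks at 0 of the 25 partner genes, against 1 in each other control list.

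An unassigned list, named 2-DG by its title but control by its description, held 15 of the 17 recurrent regions, more than the 12, 3, 2 and 2 of the control lists. It lacked those of Eprs and Vars.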

How the results depend on the processing

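The number of cytosolic genes in at least 3 of 4 2-DG lists, 13, stayed within 1.5 times under every alternative. The difference in cytosolic genes per list, 8.25, did so too, except when the conflicting lists were added by description. That setting gave 4.4, which was within the other limit used, 1 SD between lists, only because that SD is wide. The count of cytosolic genes bound in every 2-DG list but free of control peaks was 0. It became 1 at -log10 q of at least 2 (1.22% of all genes) and 3 at -log10 q of at least 5 (0.973%). At fold of at least 5 it was 3 (1.21% of all genes). Leaving out single lists gave 0 to 9. The count was 9 without control replicate 1 (1.38% of all genes) and 1 (Vars) without 2-DG replicate 3 (1.85%). Counting a control list only where its peak touches the recurrent region, chosen after seeing the data, left it at 0. The same mitochondrial count, 0, became 1 (Fars2) at fold of at least 5 (1.21% of all genes) and with equal numbers of top peaks (1.01%). It was also 1 with peaks in 1 region, a rule for which no share of all genes is given. When single lists were left out it was 0 to 1, with 1 without control replicate 3 (1.35% of all genes). The mitochondrial genes in at least 3 2-DG lists went from 2 to 1 (Lars2) with end peaks only. No gene passed the per-gene test under any alternative, and the lowest adjusted p ran from 0.311 to 1. With consecutive title numbers taken as pairs in a replicate block, which no label states, 0 genes passed and the smallest possible p was 0.125. Read depth, which is unknown, limits what a missing peak can show.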

Other observations

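The pair of lists with conflicting labels differed at the synthetase genes. The one with 2-DG in its title (control in its description) had peaks at 11 of 20 cytosolic genes, 2 of 16 mitochondrial genes and Xpot. Its folds were 34.0 at Aars, 27.1 at Iars, 19.1 at Tars, 18.4 at Sars and 17.4 at Lars. The one with control in its title (2-DG in its description) had peaks at 0 cytosolic genes and 1 mitochondrial gene, Lars2, with a fold of 36.6. Which label holds is unknown.

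Every list ended its Lars2 peak at the same base, 123462187 on chromosome 9, although the other border varied.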
